A study of Mus musculus with 7 samples.

Results

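Esrp1, Esrp2, Rbm47, Rbfox2 and Qki are RNA-binding proteins that help to set whether a transcript is spliced in its epithelial or its mesenchymal form. The rows of the deposited gene table with these symbols were read in all 7 libraries. The table lists Qki under the older symbol Qk, a synonym in RefSeq, so all 5 genes were found among 23955 gene names, and all 5 passed the expression filter. The libraries came from mouse esophageal epithelial cell lines of mixed strain background, grown on plastic in keratinocyte serum-free medium (KSFM). Mutant 1, 2 and 3 carried p53R172H, a missense allele of the tumour suppressor p53, and beside these 3 lines there were 2 labelled p53 -/- (null 1 and null 3) and 2 wild-type lines (WT 1 and WT 2). All mutant and null lines carried the treatment label 4NQO, the short name of the carcinogen 4-nitroquinoline 1-oxide, and the WT lines did not, so genotype and 4NQO cannot be told apart in a comparison with WT. Each line is a separate culture, and the labels do not give the animals, their age or the number of clones.

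Alternative splicing gives many epithelial genes a second, mesenchymal transcript form. Esrp1 and Esrp2 are paralogous proteins restricted mostly to epithelia that bind GU-rich sequences beside regulated exons, as in the choice of the epithelial exon of the growth factor receptor Fgfr2. Rbm47 is an RNA-binding protein of epithelial cells that takes part in RNA editing and splicing and has been described as a suppressor of breast cancer progression in human cells. Rbfox2 binds the letters UGCAUG and Qki, the quaking protein, binds ACUAA-containing elements, and both promote mesenchymal exon patterns. The transcription factors Zeb1 and Zeb2 repress epithelial genes, and the microRNAs of the miR-200 family, which epithelial cells make, repress Zeb1, Zeb2 and, in human cells, QKI.

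The mature microRNAs of that family are printed, with their seeds (bases 2 to 8) in capitals, because letters complementary to these seeds were found in the 3′ UTRs of the mesenchymal regulators and not in those of the epithelial ones. The 3′ UTRs of the mesenchymal regulators are also the longer ones, and matches by length are given below. The sequences are from RefSeq on GRCm38.p6. The first 3 share one seed and the last pair shares another.
mmu-miR-200b-3p: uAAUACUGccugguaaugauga
mmu-miR-200c-3p: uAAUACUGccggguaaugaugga
mmu-miR-429-3p: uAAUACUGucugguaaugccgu
mmu-miR-200a-3p: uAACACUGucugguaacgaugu
mmu-miR-141-3p: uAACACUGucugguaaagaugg
The miR-200b, miR-200a and miR-429 genes lie on the minus strand of chromosome 4, with mature miR-200b-3p at chr4:156055685-156055706. The miR-200c and miR-141 genes lie on the minus strand of chromosome 6, with mature miR-200c-3p at chr6:124718324-124718346.

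The 7 bases complementary to each seed (CAGTATT and CAGTGTT, sense strand only) were looked for in the longest annotated 3′ UTR of each regulator, from GENCODE M21 on GRCm38. Neither was found in Esrp1 (2059 bases), Esrp2 (1175 bases) or Rbm47 (2657 bases). The 3′ UTR of Qk, of 7014 bases on chromosome 17, held 3 matches to each seed, and that of Rbfox2, of 5172 bases on chromosome 15, held 2 matches to the first seed and none to the second. The matches to the first seed, and 1 of the 3 to the second in Qk, are shown in capitals, extended by 1 base where the transcript has an A opposite the first base of the microRNA, with the position of the first capital in the 3′ UTR.
Qk, position 2272: caaacaaacagtacCAGTATTtgatcca
Qk, position 2492: aatgccttggttctCAGTATTAtcactct
Qk, position 2564: gacttttttcctgaCAGTATTAtgtaatt
Qk, position 1444: gttattaccgtcttCAGTGTTAgcccaaa
Rbfox2, position 4406: gtattttctgttaaCAGTATTtcttgtg
Rbfox2, position 4952: gctttcagaccataCAGTATTcattggg
Matches are common in long 3′ UTRs. CAGTATT occurred in 15.4% of the 12612 tested genes with an annotated 3′ UTR, in 49.7% of 318 with a 3′ UTR of about the length of Qk's, in 40.5% of 709 for Rbfox2's and in 27.4% of 1885 for Rbm47's. CAGTGTT occurred in 21% of all these genes, and in 68.6%, 57.7% and 35.9% of those with 3′ UTRs of about the length of Qk's, Rbfox2's and Rbm47's. At about the lengths of Esrp1's and Esrp2's, CAGTATT occurred in 22% and 11.9% and CAGTGTT in 26.6% and 16.6%. Absence was thus the more common outcome at the lengths of the epithelial regulators. The letters describe the sequences and show no binding. Mature microRNAs were not measured: the rows for these 5 microRNA genes had at most 3 counts in any library.

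How far reads of the paralogs Esrp1 and Esrp2 were kept apart was not measured, and only the coding sequences of these genes were compared. Their longest coding sequences matched at 63.9% of 2030 aligned bases, and the longest identical stretch, shown here, had 35 bases.
Esrp1 and Esrp2: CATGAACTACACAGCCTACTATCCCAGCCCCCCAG
The longest stretch shared by Rbfox2 and Rbfox1 had 29 bases, and Rbfox1 and Rbfox3 were at or near 0 counts (at most 0.228 CPM in any library). Whether counting used the strand is not stated in the labels, and reads of a gene overlapping a regulator on the other strand could be included.

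Total counts were 12751118 to 47000225 per library, and levels below are CPM scaled with TMM factors, which adjust for library composition. Trp53, the targeted gene, had 172, 250 and 254 CPM in the mutant lines, 8.73 and 4.71 CPM in those labelled null and 212 and 193 CPM in WT, and no library went against its label. Xist, which coats the inactive X, was at most 0.964 CPM in mutant and null lines, against 675 and 1652 CPM in WT lines, so this difference too separates WT from the rest. Epithelial markers were present in every library, with all 22 at 1 CPM or more in null and WT lines and 20 or 21 of 22 in mutant lines. The null lines were unlike each other: across genes, log2 levels of null 3 had a correlation of 0.929 with null 1 and 0.970 with mutant 1. Fibroblast markers, 12 in all, summed to 703, 95.3 and 448 CPM in mutant 1, 2 and 3, to 11.2 CPM in null 1 and 590 CPM in null 3, and to 6.05 and 9.09 CPM in WT 1 and WT 2. Of the other lists, muscle markers stood apart in null 3 (90.7 CPM, at most 6.04 CPM elsewhere), and immune, endothelial and neural markers summed to at most 92.5, 15.2 and 105 CPM in any library.

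Per kilobase of annotated exon, Esrp1 was the most abundant of the regulators in WT lines, at 73.3 and 54.6 CPM per kb. Esrp2 followed at 21.0 and 17.8 CPM per kb, then Rbfox2 at 16.9 and 15.5, Qk at 9.73 and 11.1, and Rbm47 at 2.01 and 1.83 CPM per kb, and no neighbours in this order overlapped in WT. In null lines Esrp1 was again highest (75.0 and 64.7 CPM per kb), while Esrp2 (21.7 and 11.3) overlapped with both Rbfox2 (19.7 and 24.0) and Qk (10.9 and 17.9), which did not overlap with each other. In mutant lines Rbfox2, at 28.2, 34.0 and 26.1 CPM per kb, overlapped with Esrp1, at 53.7, 23.0 and 29.2 CPM per kb. Qk came next (18.9, 21.1 and 18.3 CPM per kb), above Esrp2 (7.79, 6.87 and 4.52) and Rbm47 (0.542, 0.547 and 0.372 CPM per kb). These ranks depend on the isoform lengths assumed, and the 14.2 kb of exon counted for Qk includes its long alternative 3′ ends.

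**Figure D1:**
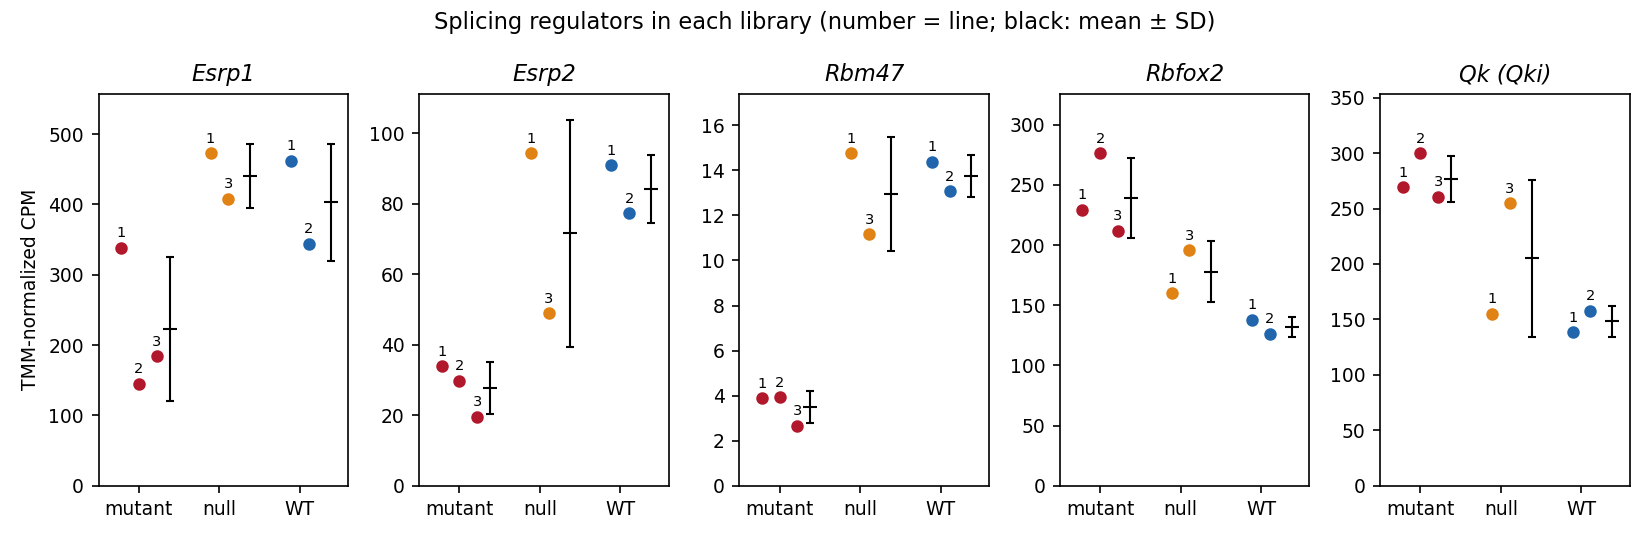
Level of each regulator in every library, in TMM-normalized CPM on a linear axis from 0, with mutant, null and WT lines from left to right. Points are single lines with their numbers and black bars are mean ± SD. The 3 epithelial regulators are lowest in the mutant lines and the mesenchymal Rbfox2 and Qk are highest there. For every regulator null 3 lies nearer to the mutant lines than null 1 does.

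Mutant lines were first set against WT, which asks how cells with p53R172H and the 4NQO label differ from wild-type cells, and the epithelial Esrp2 and Rbm47 fell while the mesenchymal Rbfox2 rose, with Benjamini-Hochberg adjusted p under 0.05 in edgeR's quasi-likelihood test over 13768 genes. That is 3 of 5 called, beside 7.42% of all genes (3.3% higher and 4.13% lower), and 4 of 5 had an unadjusted p under 0.05, beside 30.5%. All 5 regulators had mutant levels that did not overlap with WT, beside 52.6% of all genes.

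Rbm47 had the largest fold change of the 5. It was at 3.88, 3.92 and 2.66 CPM in mutant 1, 2 and 3, against 14.4 and 13.1 CPM in WT 1 and WT 2. Every mutant line was thus below both WT lines, 3.94-fold lower on average (log2 fold change -1.98, SE 0.321, adjusted p = 0.0273). These levels rest on 116 to 191 counts per mutant library.

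Esrp2 was at 33.8, 29.8 and 19.6 CPM in mutant lines, against 91.0 and 77.3 CPM in WT lines. Here too the groups were apart, and Esrp2 was 3.03-fold lower (log2 fold change -1.60, SE 0.337, adjusted p = 0.0429). Its paralog Esrp1 was at 339, 145 and 184 CPM in mutant lines and 462 and 344 CPM in WT lines. The groups met at mutant 1 and WT 2, which were nearly equal, and the log2 fold change of -0.86 (SE 0.362) did not pass (adjusted p = 0.166). Without mutant 1, Esrp1 had a log2 fold change of -1.31 and passed (adjusted p = 0.0312). This setting called 1420 of all genes, and Esrp1 was called in 1 of the 18 alternatives listed in the closing section.

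Rbfox2 was at 230, 276 and 212 CPM in mutant lines, against 138 and 126 CPM in WT lines. The lowest mutant line was well above the highest WT line, and Rbfox2 was 1.81-fold higher (log2 fold change 0.86, SE 0.181, adjusted p = 0.0429). Qk was at 269, 300 and 261 CPM in mutant lines and 139 and 158 CPM in WT lines. The groups did not overlap, but the log2 fold change of 0.90 (SE 0.235) missed the threshold (adjusted p = 0.0637). Qk was called when only mutant and WT lines were fitted (adjusted p = 0.02788), by DESeq2 (adjusted p = 0.00485), without null 1 (0.03205) and without null 3 (0.03022). These were the only 4 of the 18 alternatives to call it.

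None of the 5 was called without WT 1, WT 2, mutant 2 or mutant 3. The log2 fold changes of the 3 called genes then ran from -1.713 to -1.421 for Esrp2, -2.086 to -1.834 for Rbm47 and 0.7202 to 0.9321 for Rbfox2, and 0, 0, 37 and 6 of all genes were called, against 1022 with every library. In bulk RNA, fewer cells of a type and less RNA per cell cannot be told apart. Of the fibroblast markers 9 of 9 tested were above 0 on the log2 scale, with none called by edgeR or limma-voom. At an unadjusted p under 0.05 in edgeR 3 were higher, and DESeq2 called 6. Over all genes, 30.5% had an unadjusted p under 0.05 in edgeR and DESeq2 called 3198 of 13413. In mutant 2, 9 of the 12 fibroblast markers were under 1 CPM, 4 of them at 0 counts, among them Col1a2. The other 3 were Col5a1 at 85.5 CPM, which made up most of the sum, Pdgfra at 5.15 CPM and Col1a1 at 3.37 CPM, against at most 0.893, 4.80 and 2.03 CPM in WT lines. The part of these markers in the result was not tested. Mutant 2 had the lowest Esrp1 and the highest Rbfox2 and Qk of all 7. Esrp2 and Rbm47 were instead lowest in mutant 3 (19.6 and 2.66 CPM), and Rbm47 in mutant 2 (3.92 CPM) was the highest of the mutant lines.

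**Figure D2:**
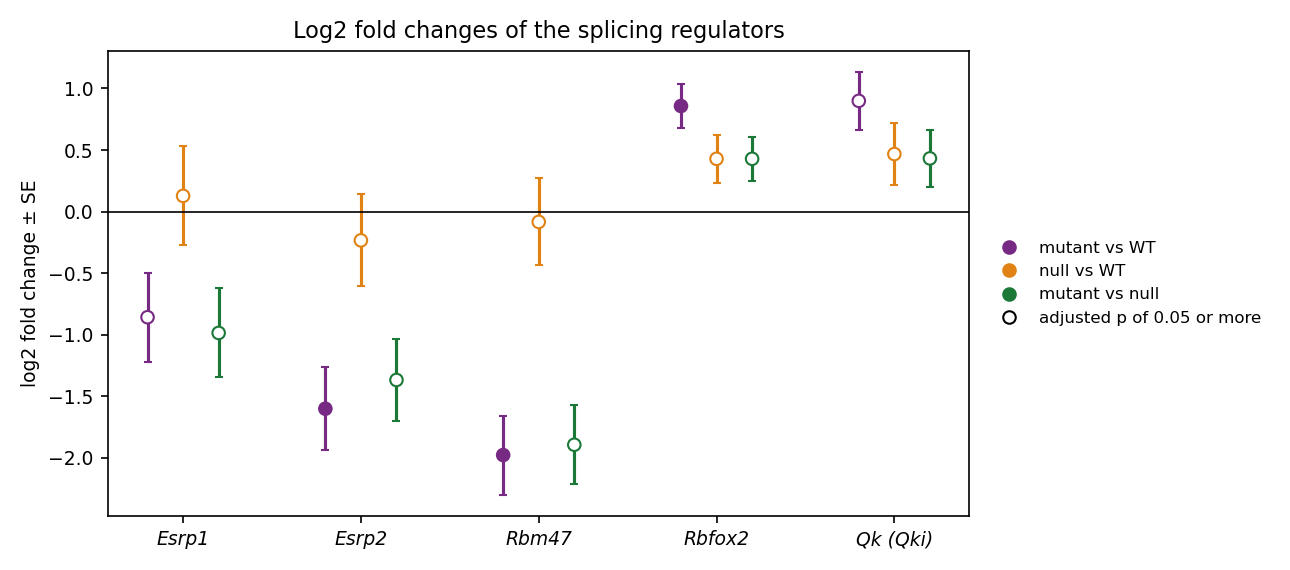
Log2 fold change ± SE of each regulator in the 3 comparisons from the fit over all genes, with filled points where the adjusted p was under 0.05. The filled points are Esrp2, Rbm47 and Rbfox2 in mutant against WT, and the mutant lines lie on the same side of null as of WT for every gene.

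For cells labelled p53 -/-, set against WT, no regulator was called by edgeR, DESeq2 or limma-voom, beside 0.138% of all genes by edgeR. DESeq2 called 1549 of 13146 genes there, and limma-voom called 0 of 13768. With edgeR none had an unadjusted p under 0.05 (20.2% of all genes). Rbm47 was at 14.8 and 11.2 CPM in null 1 and null 3, against 14.4 and 13.1 CPM in WT lines (log2 fold change -0.08, SE 0.353). Esrp1 was at 473 and 408 CPM in null lines, within or just above the 462 and 344 CPM of WT lines (log2 fold change 0.13, SE 0.401). Rbfox2 alone did not overlap, at 160 and 196 CPM in null lines and 138 and 126 CPM in WT lines, a difference of 0.43 on the log2 scale (SE 0.194, adjusted p = 0.272). Absence of overlap was seen for 56.1% of all genes.

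The 2 null lines differed most in Esrp2 and Qk. Esrp2 reached 94.3 CPM in null 1 and 48.9 CPM in null 3, a ratio of 1.93, and Qk at 155 CPM in null 1 and 255 CPM in null 3, a ratio of 1.64. Null 1 thus stood just above the WT values for Esrp2 and within them for Qk, and null 3 lay between WT and mutant lines for both. The median ratio of the higher to the lower null line over all genes tested was 1.28 with 0.5 CPM added. Fibroblast and mesenchymal markers also differed between these lines (11.2 and 590 CPM, and 1613 and 5444 CPM, in null 1 and null 3), and their part in the difference was not tested.

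Mutant and null lines share the 4NQO label, and this comparison asks how the missense protein differs from its loss. No regulator was called by edgeR, and neither was any other gene (0%; 1924 genes, 14%, had an unadjusted p under 0.05). Rbm47 came closest, at 3.88, 3.92 and 2.66 CPM in mutant lines and 14.8 and 11.2 CPM in null lines, with the groups apart (log2 fold change -1.89, SE 0.320, adjusted p = 0.258). By unadjusted p it ranked 35 of 13768 genes.

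In mutant against null the log2 fold change was -1.37 for Esrp2 (SE 0.336, adjusted p = 0.272) and -0.99 for Esrp1 (SE 0.361, adjusted p = 0.319), and both were lower in every mutant line than in either null line. Rbfox2 and Qk differed by 0.43 each (SE 0.178 and 0.231, adjusted p = 0.355 and 0.433). All 5 genes were apart between the groups, beside 31.1% of all genes, and 4 of 5 had an unadjusted p under 0.05. DESeq2, which called 604 genes, called Esrp2 (adjusted p = 0.00966) and Rbm47 (4.94e-05). Without null 1, the log2 fold change of Qk was 0.13 and that of Esrp2 was -0.81, against -1.67 for Rbm47.

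The balance between the 2 sides can be read in each library as the mean log2(CPM + 1) of Esrp1, Esrp2 and Rbm47 minus that of Rbfox2 and Qk. It was -2.69, -3.36 and -3.29 in mutant 1, 2 and 3, -0.83 and -1.84 in null 1 and null 3, and -0.68 and -0.97 in WT 1 and WT 2. The mutant lines were lowest, null 1 lay between the WT lines and null 3 lay between the groups. Within each library Qk relative to Esrp1, in CPM, was 0.795, 2.07 and 1.42 in mutant lines, 0.328 and 0.624 in null lines and 0.300 and 0.459 in WT lines. Such ratios serve to compare libraries, since CPM does not compare levels between genes.

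Both sides did not shift by one common factor. Esrp1 relative to Esrp2 was 10.0, 4.86 and 9.38 in mutant 1, 2 and 3, 5.02 and 8.35 in null 1 and null 3, and 5.08 and 4.45 in WT lines. In mutant 2 Esrp1 and Esrp2 were thus lower by about the same factor, whereas in mutant 1, mutant 3 and null 3 Esrp1 was retained relative to Esrp2. Rbfox2 and Qk kept a narrower relation, with Qk relative to Rbfox2 between 0.970 and 1.30 in all 7 libraries. Within the mutant group the highest line exceeded the lowest 2.34-fold for Esrp1, 1.73-fold for Esrp2, 1.47-fold for Rbm47, 1.30-fold for Rbfox2 and 1.15-fold for Qk, beside a median of 1.45-fold over all genes with 0.5 CPM added.

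**Figure D3:**
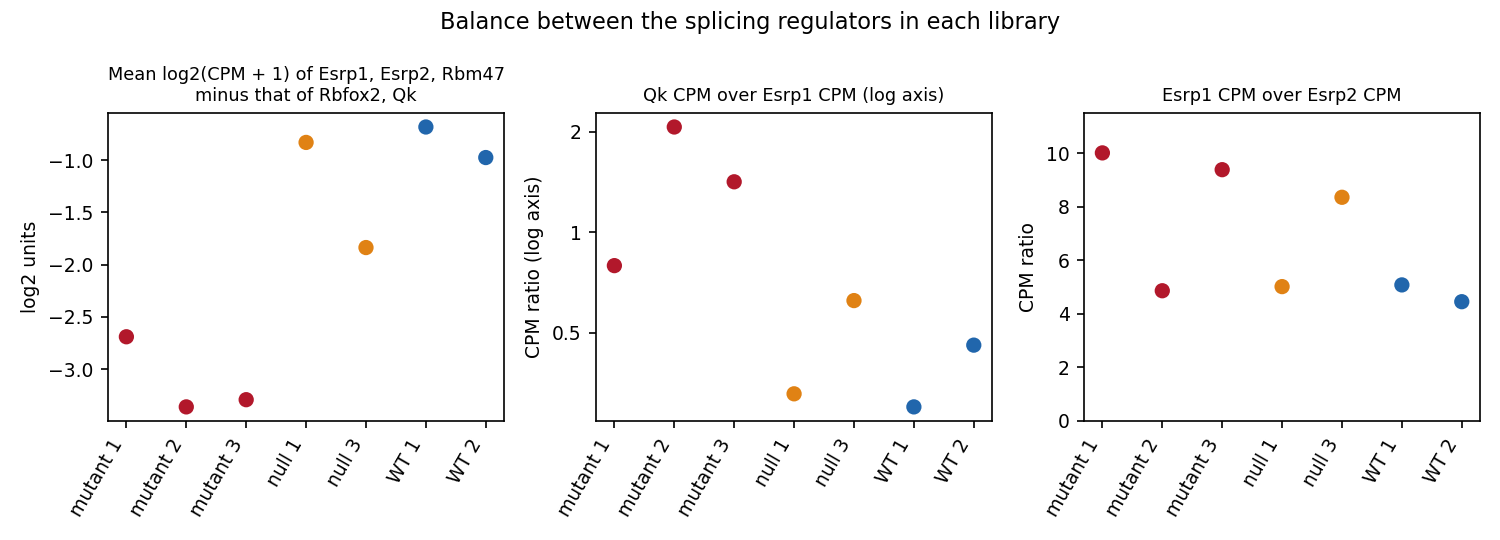
Measures of the balance in each library: the epithelial minus mesenchymal mean on the log2 scale, Qk over Esrp1 (log axis) and Esrp1 over Esrp2 (linear axis from 0). Mutant lines are at -2.69 to -3.36 on the first measure, null 1 and both WT lines between -0.68 and -0.97, and null 3 at -1.84.

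Among 65 other splicing regulators, chosen with earlier results known, 56 were tested. In mutant against WT edgeR called 3 higher (Mbnl1, Mbnl2 and Srsf4) and Celf5 lower. The share called was near the 7.42% of all genes (3.3% higher and 4.13% lower). At an unadjusted p under 0.05, 13 were higher and 4 lower, beside 30.5% of all genes either way. DESeq2 called 11 higher and 4 lower, beside 3198 of 13413 genes. The median log2 fold change was 0.19, beside 0.08 over all genes. Mbnl1, a muscleblind protein that promotes adult and differentiation-linked exon patterns, was at 276, 390 and 371 CPM in mutant lines, against 111 and 111 CPM in WT lines (log2 fold change 1.64, SE 0.250, adjusted p = 0.0249). Mbnl2, its paralog, was at 412, 369 and 435 CPM against 198 and 169 CPM (1.14, SE 0.262, adjusted p = 0.0498), and the call was lost with RLE or upper-quartile factors and in limma-voom (adjusted p = 0.05345, 0.05361 and 0.05175). Srsf4, an SR protein that promotes exon inclusion, had a log2 fold change of 1.04 (adjusted p = 0.0367; 0.05101 in limma-voom). Celf5 had 11 counts over the 3 mutant libraries, 18 over the null libraries and 202 over the WT libraries. Its log2 fold change was -4.19 in null against WT, uncalled by edgeR.

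The muscleblind genes resembled Qk in the null lines: Mbnl1 reached 144 CPM in null 1 and 218 CPM in null 3, and Mbnl2 at 205 and 359 CPM. In null against WT 36 of the 56 other regulators were below 0 on the log2 scale (median -0.24, against 0.06 over all genes), and edgeR and limma-voom called none. With edgeR 5 were higher and 15 lower at an unadjusted p under 0.05, beside 20.2% of all genes either way. DESeq2 called 3 higher and 9 lower, beside 1549 of 13146 genes. The smallest p belonged to Hnrnpa2b1, an abundant nuclear RNA-binding protein, at 342 and 410 CPM in null lines, against 697 and 923 CPM in WT lines (log2 fold change -1.11, adjusted p = 0.106). In mutant against null 48 of 56 were above 0 (median 0.37, against 0.02 over all genes), with none called by edgeR or limma-voom. At an unadjusted p under 0.05 in edgeR, 14 were higher and 0 lower, beside 14% of all genes either way. DESeq2 called 3 higher, beside 604 of 12879 genes. Hnrnph1 came first by p, at 293, 296 and 301 CPM in mutant lines, against 189 and 152 CPM in null lines (0.80, adjusted p = 0.258). Esrp1, Esrp2 and Rbm47 were thus on the other side of 0 from most splicing regulators in mutant against null.

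**Figure D4:**
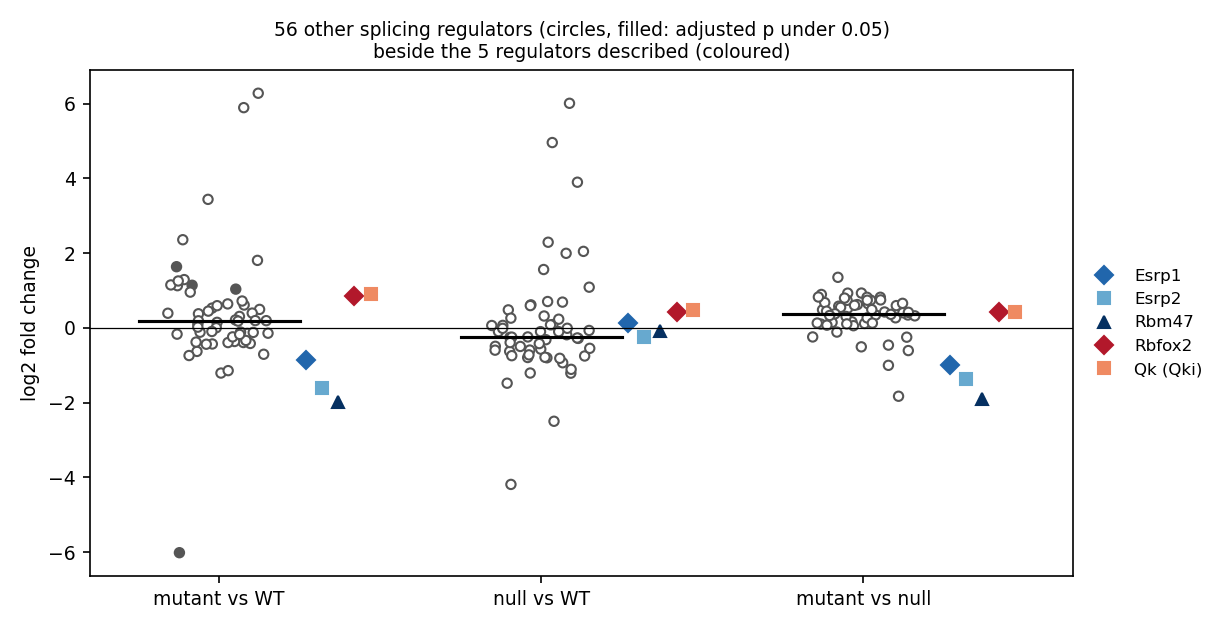
Log2 fold changes of 56 other splicing regulators (circles, filled where the adjusted p was under 0.05, bar at the median) beside the 5 regulators (coloured) in each comparison. Only the circle of Celf5 lies below Esrp2 in mutant against WT and in mutant against null, and in null against WT Esrp2 and Rbm47 are near the middle.

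Genes known to be made as epithelial and mesenchymal isoforms were read at the level of the whole gene, since the table has no exon counts and shows no splicing. Of 40 such genes, all tested, edgeR called 4 lower and none higher in mutant against WT, beside 4.13% of all genes lower and 3.3% higher. At an unadjusted p under 0.05 in edgeR, 5 were higher and 13 lower, beside 30.5% of all genes either way. DESeq2 called 5 higher and 9 lower, beside 3198 of 13413 genes. The median log2 fold change was -0.32, against 0.08 over all genes. Epb4.1l5, a cytoskeletal adaptor of epithelial junctions, was at 15.2, 10.4 and 10.4 CPM in mutant lines, against 53.7 and 49.4 CPM in WT lines (-2.11, adjusted p = 0.0212). Lsr, a protein of tricellular junctions, was at 65.9, 69.0 and 49.9 CPM, against 169 and 148 CPM (-1.36, adjusted p = 0.0212). Osbpl3, a lipid-binding protein, fell by 1.55 on the log2 scale (adjusted p = 0.0299). The transcription factor Grhl1 was at 9.56, 9.90 and 13.6 CPM in mutant lines, against 58.2 and 66.3 CPM in WT lines (log2 fold change -2.498, adjusted p = 0.0218).

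Of the 40, edgeR and limma-voom called none in null against WT (5 higher and 5 lower at an unadjusted p under 0.05 in edgeR) or in mutant against null (1 higher and 8 lower). DESeq2 called 3 higher and 2 lower in null against WT, and 1 higher and 5 lower in mutant against null. Over all genes in these comparisons, 20.2% and 14% had an unadjusted p under 0.05, and DESeq2 called 1549 of 13146 and 604 of 12879. Fgfr2, the receptor whose exon choice depends on Esrp1 and Esrp2, was at 57.6, 104 and 56.4 CPM in mutant lines, 55.9 and 46.9 CPM in null lines and 72.7 and 89.2 CPM in WT lines, with no call. Its relative Fgfr1 was at 107.6, 40.01 and 100.8 CPM in mutant lines, 2.34 CPM in null 1 and 126 CPM in null 3, and 0.272 and 0.731 CPM in WT lines (adjusted p = 0.0607 in mutant against WT and 0.14 in null against WT). The hyaluronan receptor Cd44, whose variable exons are retained by Esrp1, was at 1499, 377 and 685 CPM in mutant lines, 391 and 634 CPM in null lines and 1272 and 1198 CPM in WT lines. The mutant lines spanned the other 2 groups, and no comparison called Cd44.

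Transcription factors of the mesenchymal transition and of epithelial identity were read beside the regulators. Of 22 tested, edgeR called 3 higher and 6 lower in mutant against WT (5 higher and 7 lower at an unadjusted p under 0.05). DESeq2 called 6 higher and 7 lower there. Over all genes there, edgeR called 3.3% higher and 4.13% lower, 30.5% had an unadjusted p under 0.05, and DESeq2 called 3198 of 13413. In null against WT edgeR called none (6 higher and 4 lower at an unadjusted p under 0.05) and DESeq2 called 4 higher. In mutant against null edgeR again called none (3 higher and 7 lower at an unadjusted p under 0.05), and DESeq2 called 2 each way. Over all genes, 20.2% in null against WT and 14% in mutant against null had an unadjusted p under 0.05. DESeq2 called 1549 of 13146 and 604 of 12879 genes there. Zeb1 was at 28.9, 53.6 and 53.7 CPM in mutant lines, 0.274 CPM in null 1 and 6.23 CPM in null 3, and 0.0340 and 0.162 CPM in WT lines. It had 6017 counts over mutant and 3 over WT libraries, a ratio of 620 (95% counting interval 212 to 3008). This interval leaves out the spread between lines. By edgeR Zeb1 was called in mutant against WT (adjusted p = 0.0349). Zeb2 was at 66.14, 66.99 and 83.44 CPM in mutant lines, 11.1 CPM in null 1 and 69.1 CPM in null 3, and 3.61 and 4.38 CPM in WT lines (adjusted p = 0.0355 in mutant against WT). In limma-voom neither Zeb gene was called in mutant against WT (adjusted p = 0.09715 for Zeb1 and 0.09755 for Zeb2).

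Null 3 thus had Zeb2 at a mutant level, with Zeb1 at an intermediate one, while its Esrp1 was within the WT values and its Rbm47 lay below them but above every mutant line. Cdh1, E-cadherin, was at 476, 289 and 445 CPM in mutant lines, 742 and 761.9 CPM in null lines and 931 and 691 CPM in WT lines, with both null lines within the WT values (adjusted p = 0.0599 in mutant against WT). Vim, the mesenchymal filament vimentin, was at 343, 577 and 825 CPM in mutant lines, 2.71 CPM in null 1 and 225 CPM in null 3, and 0.646 and 3.41 CPM in WT lines (adjusted p = 0.0599 in mutant against WT). Grhl2, an activator of epithelial genes, fell by 1.26 on the log2 scale in mutant against WT (adjusted p = 0.0249). It was at 70.3, 59.0 and 53.9 CPM in mutant lines, 114.5 and 83.03 CPM in null lines and 142 and 150.5 CPM in WT lines.

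**Figure D5:**
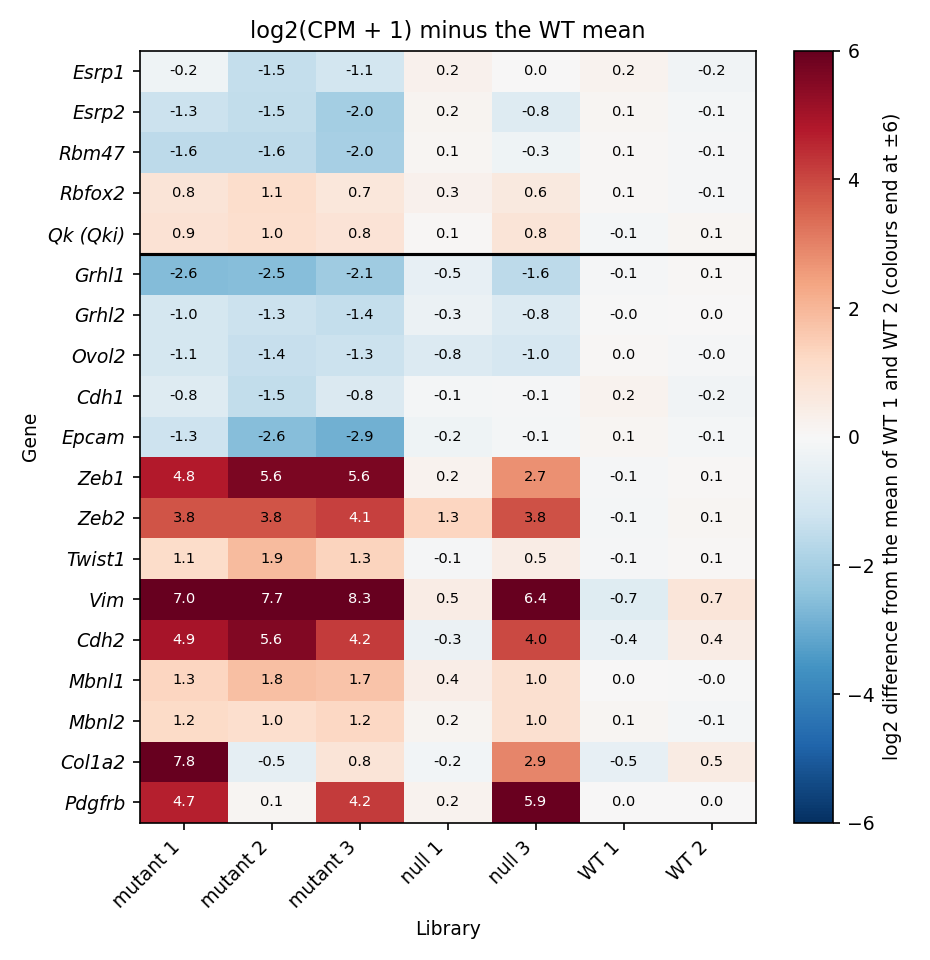
Difference of log2(CPM + 1) from the mean of both WT lines for the 5 regulators (above the line) and 14 other genes, which were chosen for display after their values were seen. Null 3 shares the high Zeb2, Vim, Cdh2 and Qk of the mutant lines. Of the epithelial genes shown null 3 is low in Ovol2 (-1.02), Grhl1 (-1.56), Grhl2 (-0.81) and Esrp2 (-0.77) and near WT in Esrp1, Cdh1 and Epcam. Null 1 is at -0.82 in Ovol2, -0.49 in Grhl1, -0.35 in Grhl2 and 0.17 in Esrp2.

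Of epithelial markers 8 of 22 fell in mutant against WT, with all 22 below 0 on the log2 scale (median -1.35), and 1 of 15 mesenchymal markers, the matrix protein Sparc, rose (median 3.62). St14, Rab25 and Krt5 were among these 8 epithelial markers (adjusted p = 0.0231, 0.0249 and 0.0289). Krt5 was at 4214, 2695 and 2215 CPM in mutant lines, 4048 and 2035 CPM in null lines and 13830 and 21400 CPM in WT lines. Its log2 fold change was -2.53 in both comparisons with WT (adjusted p = 0.0995 in null against WT). Krt14 had log2 fold changes of -1.51 in mutant and -1.99 in null against WT, both uncalled by edgeR. Of the 22, 17 were below 0 and 5 above in null against WT. DESeq2 called 15 epithelial markers lower and 8 mesenchymal markers higher in mutant against WT. Over all genes there, edgeR called 4.13% lower and 3.3% higher, and DESeq2 called 1483 of 13413 lower and 1715 higher. In null against WT and in mutant against null edgeR and limma-voom called no epithelial or mesenchymal marker. At an unadjusted p under 0.05 in edgeR, 5 and 11 epithelial markers were lower and 5 and 1 mesenchymal markers higher, and DESeq2 called 4 and 10 epithelial markers lower. Over all genes, 20.2% and 14% had an unadjusted p under 0.05 either way, and DESeq2 called 647 of 13146 and 391 of 12879 lower. The 22 epithelial markers had median log2 fold changes of -0.52 and -0.76 in these comparisons.

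The genes most like each regulator were found among 10110 genes with a mean above 5 CPM, by Pearson's r of log2(CPM + 1) over the 7 libraries. The libraries fall into the same groups for every gene, so r describes a shared pattern. Myh14, a nonmuscle myosin heavy chain of epithelia, was most like Esrp1 (r = 0.989), at 58.8, 1.09 and 8.26 CPM in mutant lines, 179 and 131 CPM in null lines and 122 and 55.2 CPM in WT lines. Tmbim6 and Nipal2 followed for Esrp1. Esrp2 was most like the ribosomal protein gene Rpl8 (r = 0.997), the glutaminyl-tRNA synthetase Qars and Pik3ip1, and Rbm47 was most like Rassf7 (r = 0.993), Slc44a1 and Spns2.

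Rbfox2 was most like Ldlrad3 (r = 0.993), Chtop and Pja2. Qk was most like Cdh2, N-cadherin, a cadherin of mesenchymal and neural cells (r = 0.994), then Gnb4 and Tgfb1i1. Cdh2 was at 46.0, 72.0 and 27.3 CPM in mutant lines, 0.213 CPM in null 1 and 23.0 CPM in null 3, and 0.136 and 1.06 CPM in WT lines. Like Qk, it was high in the 3 mutant lines and null 3 and low in null 1 and both WT lines. Among the regulators themselves r was 0.964 for Esrp2 with Rbm47, 0.937 for Rbfox2 with Qk, 0.822 for Esrp1 with Esrp2 and -0.896 for Esrp2 with Qk.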

How the data were processed

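The authors deposited raw counts per gene name for 7 poly(A) RNA libraries made with a TruSeq stranded mRNA kit, as the labels' protocols state. STAR 2.5.1b and mm9 are named per the submitters' processing notes. No source used here gives the counting step, its strand setting or the annotation. Of 24047 names, 92 spike-ins with 0 counts were left out, and 27 date-like names were kept and not named.

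Groups came from the sample titles. All 7 libraries entered one edgeR 4.0.16 quasi-likelihood fit (R 4.3.3, default legacy form, TMM, default filter, 13768 genes), with Benjamini-Hochberg adjustment over all genes and a threshold of 0.05. The 3 groups shared one estimate of spread. The labels do not say that lines came from separate animals, so p-values reflect the spread among these cultures, which may be technical. No pair within a group was a copy (chi-square over degrees of freedom 56.4 to 243). Tested on simulated data for 13768 genes, mutant against WT recovered 7% of 2-fold and 66% of 4-fold changes, null against WT 2% and 53%, and mutant against null 2% and 68%. A missing call therefore does not show a lack of difference.

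The members and lists were chosen with earlier results of these data known. Named genes were the members, at most 4 called genes of a list, or 2 by smallest unadjusted p where none was called (not all are printed, and 1 is not reported here), the 3 genes most like each member, and 8 from background knowledge; others were chosen after their values were seen. Alternatives are given in the closing section. Sequences are from RefSeq and GENCODE on GRCm38, used for letters and lengths, not with mm9 coordinates.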

Additional observations from a re-analysis of the deposited data

How the results depend on the processing

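The 18 alternatives changed the scaling (RLE, upper-quartile), the tool (DESeq2 1.42.0 or limma 3.58.1 with voom), the filter (none, or 5 CPM in 2 libraries), the edgeR form (newer or robust), the libraries (only 2 groups, thinned to the shallowest, or each left out) or added a replicate block. In mutant against WT and mutant against null each of the 5 regulators kept its direction in all 18, and Esrp2, Rbm47 and Rbfox2 were called in mutant against WT in 13 of 18 (adjusted p 0.00024 to 0.224, 2.71e-06 to 0.193 and 0.00041 to 0.269); the other 5 were the block and the 4 libraries named above. DESeq2 called 3198, 1549 and 604 genes in mutant against WT, null against WT and mutant against null, and 2 of the 5 regulators in the last. In null against WT limma-voom called 0 genes (2155 at an unadjusted p under 0.05), no filter 77 and the newer form 55. In mutant against null RLE, upper-quartile, the 5 CPM filter and the newer form called 1 gene each, and no filter 2.

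The labels give groups the same replicate numbers. Deviations of same-numbered libraries correlated at -0.338 to 0.149, and those of differently numbered libraries at -0.369 to 0.369. Deviations of the WT lines mirror each other by construction, as do those of the null lines. The correlations therefore cannot decide whether the numbers pair the lines. With a replicate block 0 genes and 0 regulators were called in mutant against WT and 0 genes in null against WT, with 2887 and 1454 at an unadjusted p under 0.05. Null and WT share 1 number only. Under the block Esrp1, Esrp2 and Rbm47 changed sign in null against WT (-0.01286, 0.01641 and 0.133, all uncalled).

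Leaving out single libraries gave 0 to 1420 genes and 0 to 4 regulators called in mutant against WT, 0 to 55 genes in null against WT and 0 to 22 in mutant against null. Some uncalled values changed sign: in null against WT the ranges were -0.07551 to 0.3588 for Esrp1, -0.787 to 0.1641 for Esrp2, -0.3018 to 0.1041 for Rbm47 and -0.3144 to 0.1247 for Cdh1. They were -0.5261 to 0.0002496 for Fgfr2 in mutant against WT and, for Col1a2 in mutant against null (4.41 with every library), -2.778 without mutant 1 to 8.474. No level moved by more than its group's SD under RLE or upper-quartile factors, nor did the balance under RLE factors or a pseudocount of 0.1. Rbm47, with 116 to 485 counts per library, has the least depth of the 5.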
